A study of Homo sapiens with 12 samples.

Results

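The fibroblast growth factor (FGF) genes, their receptors and the Sprouty and SPRED inhibitors of the same pathway were examined in 4 peak lists made by chromatin immunoprecipitation and sequencing (ChIP-seq) in H1, a widely used line of human embryonic stem cells. The members were 31 of 20037 RefSeq protein-coding genes, chosen by name: 20 FGF genes, 5 receptor genes and 6 inhibitor genes. FGF13, FGF16 and SPRY3 are not on the list. All 31 members lie on autosomes, whereas the 20037 genes include those of chromosomes X and Y. A gene counted as carrying a feature when a peak touched the gene body or 2 kb either side of it by at least 1 bp. The knockdown cells had been treated with an shRNA against YTHDF1 and gave YTHDF1 and input libraries. The untreated wild-type cells gave YTHDF1, RNF2, H2AK119ub and input libraries. All cells were grown in mTESR1, a feeder-free medium that contains FGF2. Each of the 6 groups had 2 biological replicates, but the authors had merged them, so that each list gives 1 value per gene with no replicate spread and no test over samples could be made. A wild-type group treated with a control shRNA was not analysed here.

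Most FGFs are secreted proteins that bind receptor tyrosine kinases together with heparan sulfate or Klotho co-receptors and signal through RAS and the MAP kinases. Sprouty and SPRED proteins dampen this pathway, and human embryonic stem cells depend on FGF signalling for self-renewal. RNF2 is an enzyme of the Polycomb complex PRC1, which places ubiquitin on histone H2A (H2AK119ub) and is known for holding developmental genes silent. YTHDF1 is known as a reader of N6-methyladenosine in RNA.

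The lists differed in size and in the strength at which they end. The knockdown YTHDF1 list held 226 peaks, and the wild-type YTHDF1, RNF2 and H2AK119ub lists held 44498, 29310 and 43331. The sequencing depth behind them is unknown. The weakest peak had a −log10 q of 4.01 in the knockdown YTHDF1 list and of 1.502 in the wild-type one. Peak lists hold no expression, so the cell type could be looked at only through RNF2. Peaks of 19.0 to 181 kb lay at 4 of 4 lineage genes (HOXA13, GATA4, PAX6 and TBXT). Of the pluripotency genes POU5F1, NANOG, SOX2 and LIN28A, 2 of 4 carried one, the wider of 23.5 kb, so that the widths overlapped. An RNF2 peak of any width lay at 71.7% of all coding genes, so these counts do not identify the cells. The extent of the knockdown could not be checked from peaks.

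The promoters of 6 members show examples of the sequences and PRC1 states found, not their full range. Each stretch runs from 250 bases before to 50 bases after the annotated start (RefSeq, GRCh38.p14), 5′ to 3′ on the gene's strand, with CpG dinucleotides in capitals. FGF5 (plus strand, chr4:80266338-80266637) lay under a broad RNF2 domain, and FGF2 (plus strand, chr4:122826581-122826880) under a narrower RNF2 peak. SPRY1 (plus strand, chr4:123396545-123396844) lay partly under a narrower RNF2 peak, which began inside the stretch at 123396695 and covered the start. SPRY4 (minus strand, chr5:142324198-142324497) and FGF1 (minus strand, chr5:142698021-142698320) had H2AK119ub without RNF2, and FGF7 (plus strand, chr15:49422992-49423291) had neither. They hold 31, 41, 12, 26, 2 and 4 CpGs in this order. Among all members with a start, the count ran from 1 at FGF21 to 52 at FGFR2.
FGF5: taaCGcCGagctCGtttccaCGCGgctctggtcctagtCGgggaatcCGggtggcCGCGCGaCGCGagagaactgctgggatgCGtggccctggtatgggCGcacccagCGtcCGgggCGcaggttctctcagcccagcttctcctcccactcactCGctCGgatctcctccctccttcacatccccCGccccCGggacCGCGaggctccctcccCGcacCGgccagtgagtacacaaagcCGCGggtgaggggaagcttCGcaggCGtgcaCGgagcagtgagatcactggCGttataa
FGF2: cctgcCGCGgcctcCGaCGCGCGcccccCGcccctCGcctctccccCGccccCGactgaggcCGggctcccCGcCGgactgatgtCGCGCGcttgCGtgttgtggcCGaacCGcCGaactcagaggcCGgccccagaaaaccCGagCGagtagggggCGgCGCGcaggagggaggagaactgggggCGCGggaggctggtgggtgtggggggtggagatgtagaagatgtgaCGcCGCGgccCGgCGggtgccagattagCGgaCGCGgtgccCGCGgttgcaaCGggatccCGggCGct
SPRY1: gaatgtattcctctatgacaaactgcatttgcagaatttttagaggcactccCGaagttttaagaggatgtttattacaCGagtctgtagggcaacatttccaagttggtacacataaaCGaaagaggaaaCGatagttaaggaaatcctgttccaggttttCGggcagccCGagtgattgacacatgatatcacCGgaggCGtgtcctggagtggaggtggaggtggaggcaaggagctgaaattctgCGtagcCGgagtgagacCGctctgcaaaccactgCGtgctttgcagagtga
SPRY4: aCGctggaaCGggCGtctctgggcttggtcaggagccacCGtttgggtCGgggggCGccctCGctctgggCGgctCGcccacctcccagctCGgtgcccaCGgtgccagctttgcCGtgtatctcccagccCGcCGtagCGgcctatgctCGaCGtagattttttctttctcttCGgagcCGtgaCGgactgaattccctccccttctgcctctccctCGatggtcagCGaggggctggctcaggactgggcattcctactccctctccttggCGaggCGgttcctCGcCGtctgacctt
FGF1: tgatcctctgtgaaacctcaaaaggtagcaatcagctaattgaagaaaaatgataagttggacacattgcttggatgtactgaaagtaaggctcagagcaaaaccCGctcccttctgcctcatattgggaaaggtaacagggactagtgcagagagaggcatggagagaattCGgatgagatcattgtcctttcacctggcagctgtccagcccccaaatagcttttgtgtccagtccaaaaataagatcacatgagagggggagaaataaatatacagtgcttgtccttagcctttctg
FGF7: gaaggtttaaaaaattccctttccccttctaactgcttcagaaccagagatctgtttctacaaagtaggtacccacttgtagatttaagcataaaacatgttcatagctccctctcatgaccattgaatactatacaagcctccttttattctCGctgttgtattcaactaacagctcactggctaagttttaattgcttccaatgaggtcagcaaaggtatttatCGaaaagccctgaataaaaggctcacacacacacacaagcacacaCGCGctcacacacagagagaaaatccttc

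RNF2 and H2AK119ub lay on most members. RNF2 was found at 28 of 31 members (90.3%, exact Clopper-Pearson 95% interval 74.2 to 98.0%), against 71.7% of all coding genes. H2AK119ub was found at 30 of 31 (96.8%, 83.3 to 99.9%), against 79.0%. When 50% of the island had to lie inside the window, the H2AK119ub count was 20 of 31, against 66.2% of all coding genes. By role, RNF2 was at 18 of 20 FGF genes, 5 of 5 receptor genes and 5 of 6 inhibitor genes, and H2AK119ub at 19, 5 and 6. The members without RNF2 were FGF1, FGF7 and SPRY4, and FGF7 alone lacked H2AK119ub. These intervals cover counting error only. Within each single role the interval contained the share of all coding genes for both features, and no test of the members as a set was made. The 46 RNF2 peaks, 55 islands and 40 wild-type YTHDF1 peaks each belonged to 1 member only. Another coding gene was also touched by 6 of the RNF2 peaks, 8 of the islands and 3 of the YTHDF1 peaks, the last at FGF7 (FAM227B), FGF11 (TMEM102) and SPRED3 (GGN).

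**Figure D1:**
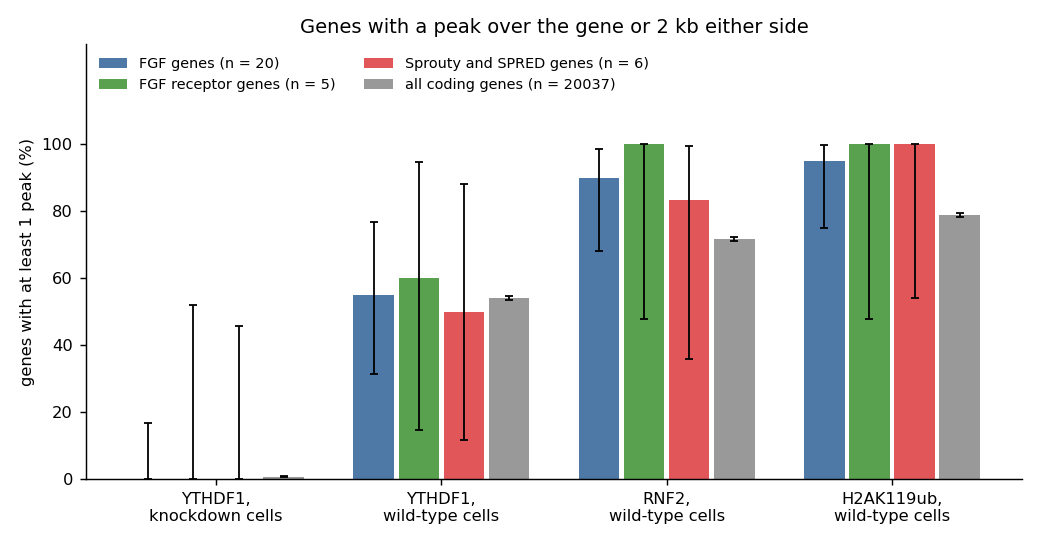
Share of genes with at least 1 peak over the gene or 2 kb either side (y axis, percent) in the 4 lists, for the 20 FGF, 5 receptor and 6 inhibitor genes and, at the right of each cluster, all 20037 coding genes; lines are exact 95% binomial intervals. RNF2 and H2AK119ub lie above the grey bars in each role, wild-type YTHDF1 lies close to its grey bar of 54.1%, and no member has a knockdown peak.

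The order of the roles by RNF2 depended on the measure, and no difference between roles was tested. With genes lacking a peak set to 0, the median of the widest RNF2 peak was 4.90 kb over the 20 FGF genes, 4.38 kb over the 5 receptor genes and 2.40 kb over the 6 inhibitor genes, against 1.45 kb over all coding genes. The median share of the window under RNF2 was 14.8% over the FGF genes, 8.99% over the receptor genes and 15.4% over the inhibitor genes, against 3.07% over all coding genes. A peak of given width fills a larger share of a shorter window, and the shares were not adjusted for length. Median gene lengths were 11.6, 16.7 and 12.7 kb in the same order, against 24.1 kb over all coding genes. An RNF2 peak of at least 5 kb lay at 12 of 31 members (38.7%), against 9.69% of all coding genes. Of these 12 members, 10 were FGF genes, 1 was the receptor gene FGFRL1 and 1 was the inhibitor gene SPRED2. At least 10 kb was reached at 5 members (16.1%), against 3.97% of all coding genes. The 5 and 10 kb limits were chosen after the widths had been seen.

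**Figure D2:**
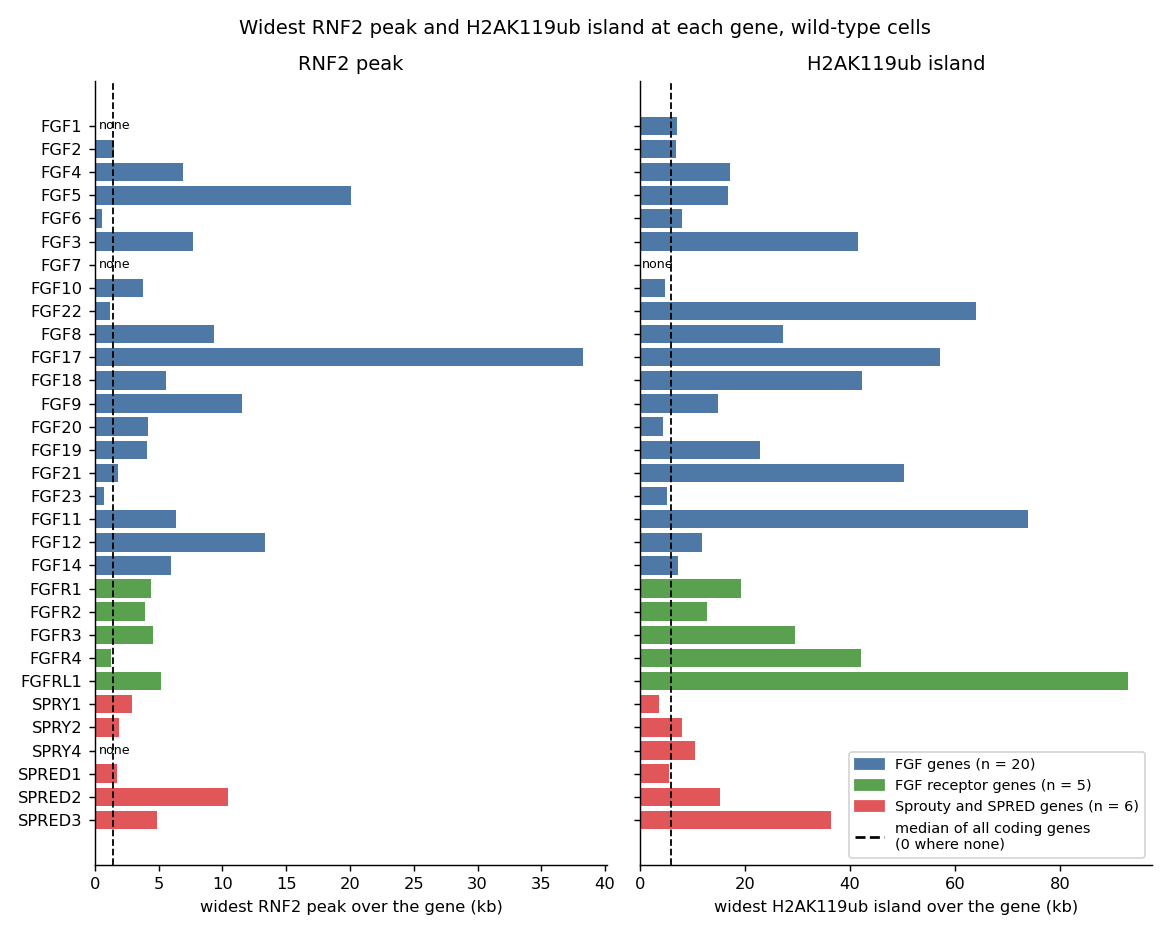
Width in kb of the widest RNF2 peak (left) and the widest H2AK119ub island (right) over each of the 31 genes, in wild-type cells; bars start at 0, colours give the role and dashed lines are the medians of all coding genes (1.45 and 6 kb). FGF17 and FGF5 have the longest RNF2 bars at 38.3 and 20.1 kb, and the receptor genes combine RNF2 peaks of 1.27 to 5.21 kb with islands of 12.8 to 93 kb.

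Among the secreted FGFs, the broadest RNF2 peaks lay on FGF17, FGF5, FGF9 and FGF8. FGF5, a marker of the epiblast in mouse, carried an RNF2 peak of 20.1 kb with an authors' fold enrichment of 51.2 on chromosome 4 (80254936 to 80274994, hg38), which ran across its annotated start. An H2AK119ub island of 16.8 kb lay inside this peak's span and had a score at the list's cap of 1000. FGF17, expressed at the midbrain-hindbrain boundary in mouse, lay inside an RNF2 peak of 38.3 kb and 43.0-fold on chromosome 8, which also covered parts of DMTN and NPM2. FGF9, a factor of lung and gonad development, had an RNF2 peak of 11.5 kb and 24.6-fold over its lower-coordinate end on chromosome 13. FGF8, a factor of gastrulation and of the midbrain-hindbrain boundary, had a 9.35 kb peak of 14.7-fold on chromosome 10 (101771432 to 101780784), and RNF2 covered 72.5% of its window, the gene with 2 kb either side.

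FGF3, FGF4 and FGF19 are neighbours within 121 kb on chromosome 11 and carried separate RNF2 peaks. FGF3, a factor of inner ear induction, had a 7.67 kb peak of 18.4-fold over its start. FGF4, which in mouse embryos drives formation of the primitive endoderm, had a 6.88 kb peak of 10.05-fold over the whole gene. FGF19, the bile acid hormone, had a 4.05 kb peak of 7.72-fold over its higher-coordinate end. From the lower end of FGF19 to the higher end of FGF3, H2AK119ub islands covered 91.6% of the sequence and RNF2 peaks 13.1%.

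FGF18, FGF20, FGF10, FGF22 and FGF6 had RNF2 peaks of 5.60 kb or less. FGF18, a factor of bone and lung growth, had 5.60 kb of 8.18-fold over its start, FGF20, a factor of inner ear development in mouse, 4.19 kb of 8.17-fold, and FGF10, which drives limb and lung budding, 3.81 kb of 6.76-fold. FGF22, a synapse organiser in mouse, had a 1.18 kb RNF2 peak of 4.59-fold inside an H2AK119ub island of 64 kb that also covered 4 other coding genes in whole or part. FGF6, a factor expressed in muscle, had 2 RNF2 peaks of 0.567 and 0.323 kb, neither at its start, while an island of 8 kb crossed the start.

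The hormone-like FGFs besides FGF19 had RNF2 peaks of 1.82 kb or less. FGF21, a metabolic hormone of the liver, had a 1.82 kb RNF2 peak of 5.15-fold that ended 1.87 kb before its start and touched FUT1. FGF23, the bone hormone that lowers phosphate, had a 0.696 kb peak of 4.69-fold over its start.

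FGF2, the ligand supplied in stem cell medium, had an RNF2 peak of 1.51 kb and 3.51-fold over its start (chromosome 4, 122826137 to 122827644) within an island of 6.8 kb. The other member of its subfamily, FGF1, which can bind all FGF receptors with a kinase domain, had no RNF2 peak. It had 5 islands of 3.4 to 7 kb, with scores of 6.23 to 19.0, of which 1 crossed its start. FGF7, the keratinocyte growth factor, lay 131.8 kb from the nearest RNF2 peak and 251 kb from the nearest island.

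The FGF homologous factors FGF11, FGF12 and FGF14 are not secreted and act on voltage-gated sodium channels inside neurons. FGF11 had RNF2 peaks of 6.33 and 3.28 kb within an island of 74 kb that reached 8 other coding genes. In the 588 kb gene FGF12, the annotated start carried an RNF2 peak of only 0.366 kb and 3.32-fold and no island. Its broadest peak, of 13.4 kb and 12.3-fold, lay inside the gene, 309 kb from that start (chromosome 3, 192404895 to 192418262), on an island of 11.8 kb. FGF14, of 692 kb, likewise had a 6.01 kb RNF2 peak of 9.32-fold inside the gene, 482 kb from its annotated start, besides 4.55 kb of 6.79-fold over the start. The promoter table holds 1 start per gene, and whether the inner peaks fall on further starts of these genes was not tested.

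The receptor genes carried RNF2 over 1 end and H2AK119ub over much of the gene. FGFR1, the main FGF receptor of embryonic stem cells, had a 4.38 kb RNF2 peak of 6.50-fold over its higher-coordinate end on chromosome 8 and 6 islands covering 79.7% of its window. FGFR2, which receives FGF7 and FGF10 in epithelia, had 3.96 kb of 4.82-fold over its start. FGFR3, which restrains bone growth, had 4.59 kb of 6.51-fold, and FGFR4, the liver receptor for FGF19, had 1.27 kb of 5.31-fold, both over the start. FGFRL1, a receptor that lacks the kinase domain, had 5.21 kb of 8.78-fold over its start and lay within an island of 93 kb that touched 5 other coding genes. The median share of the window under H2AK119ub was 100% over the 5 receptor genes, 53.6% over the FGF genes and 39.0% over the inhibitor genes, against 15.3% over all coding genes. These shares were not adjusted for gene length either, and the median length was shorter in each role than over all coding genes. FGFR2 had the lowest share among the receptor genes, at 21.8% of its window.

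The inhibitor genes ranged from a broad RNF2 domain at SPRED2 to none at SPRY4. SPRED2, which with the other SPRED proteins restrains RAS at the membrane, had a 10.5 kb RNF2 peak of 9.15-fold over its start on chromosome 2 (65428805 to 65439275) and an island of 15.2 kb. SPRED3 had RNF2 peaks of 4.84 and 2.70 kb, the first ending 47 bases before its annotated start and touching GGN, while SPRED1 had 1.72 kb of 3.15-fold over its start. SPRY1 and SPRY2, Sprouty proteins that limit FGF and other receptor kinase signals, had 2.90 kb of 4.85-fold and 1.90 kb of 4.43-fold over their starts. SPRY4, a further Sprouty gene, had no RNF2 peak within 199 kb of the gene, but an island of 10.6 kb with a score of 161 crossed its start. H2AK119ub without RNF2, the state of SPRY4 and FGF1, was found at 10.1% of all coding genes, and neither feature, the state of FGF7, at 18.2%.

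Most of the members' annotated starts lay under RNF2. Of the 24 members matched to an annotated start in the promoter table, 18 (75%) had an RNF2 peak covering it, against 62.9% of the 15843 coding genes with a start. A peak within 2 kb of the start was found at 20 (83.3%), against 66.5%. H2AK119ub covered the start of 21 (87.5%), against 70.2%. The starts not under RNF2 were those of FGF1, FGF6, FGF7, FGF21, SPRY4 and SPRED3. At SPRED3, a plus-strand gene, an RNF2 peak covered the lower-coordinate end of the gene and stopped 47 bases before the start in the promoter table. At the SPRY1 start the island began 6 bases downstream, inside the RNF2 peak.

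**Figure D3:**
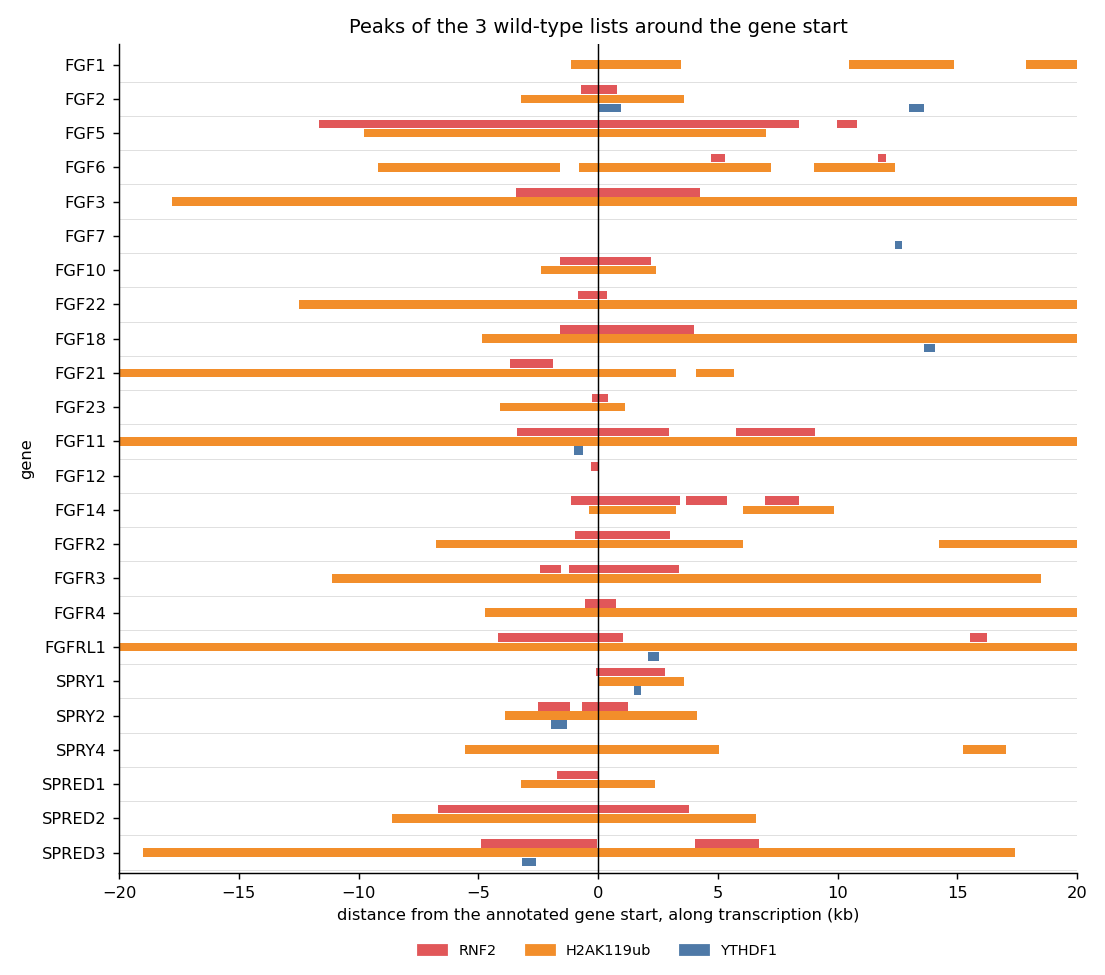
Peaks of RNF2 (upper lane), H2AK119ub (middle lane) and wild-type YTHDF1 (lower lane) that touch the gene or 2 kb either side, drawn within 20 kb of the annotated start (x axis, kb along transcription) for the 24 genes with a start. RNF2 covers the line at 0 in 18 genes, YTHDF1 in none, and the FGF12 start has a 0.366 kb RNF2 peak without an island.

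RNF2 peaks and H2AK119ub islands were then compared with each other. Of the members' 46 RNF2 peaks, 41 (89.1%) overlapped an island, against 85.1% of the whole RNF2 list. The RNF2 peaks without an island lay in FGF5, FGF12 and FGF14. In the other direction, 34 of the 55 islands (61.8%) overlapped RNF2, against 39.9% of the whole island list.

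The CpG content of the promoters was set beside RNF2 at the start. CpG observed over expected is the number of CpGs divided by that expected from the C and G content. Its median was 0.778 over the 18 members with RNF2 on the start and 0.355 over the 6 without. These 6 include SPRED3 (0.384), where an RNF2 peak ended 47 bases before the start. Over all coding promoters in the table it was 0.852 for 9963 with RNF2 and 0.309 for 5880 without. The widest peaks over a start were at FGF5 (0.926), SPRED2 (0.853) and FGF3 (0.820). SPRY4 had a ratio of 0.827 without RNF2, and FGF23 had 0.440 with a peak of 0.696 kb, so that single genes departed from the medians. These are descriptions of 300 bases per gene with no test.

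**Figure D4:**
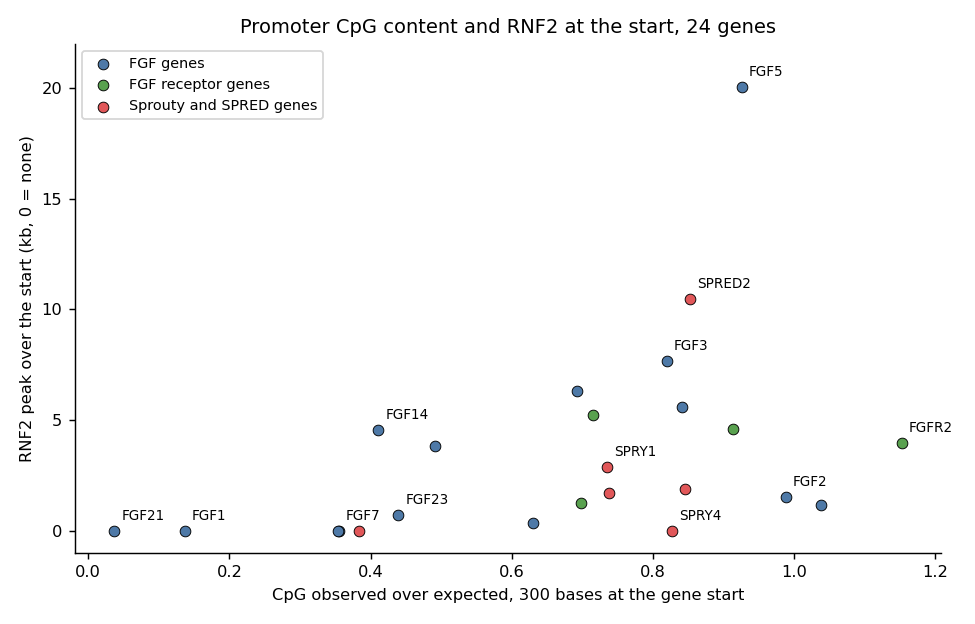
CpG observed over expected in 300 bases at the gene start (x axis) against the width in kb of the RNF2 peak over that start (y axis, 0 where none) for 24 genes, coloured by role. Of the 6 genes at 0 on the y axis, 5 lie below a ratio of 0.4 and SPRY4 lies at 0.827, while the tallest point, FGF5, lies at 0.926.

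The share of members with YTHDF1 in wild-type cells lay close to that of all coding genes, and no member had a peak in knockdown cells. In knockdown cells 0 of 31 members carried a YTHDF1 peak, against 17 of 31 in wild-type cells (54.8%, 36.0 to 72.7%). For the 0 of 31, the upper limit of the 2-sided exact 95% interval was 11.2%. The limit by 3 counts of the total, which approximates a 1-sided 95% limit, was 9.68%. Over all coding genes the shares were 0.843% in the knockdown list and 54.1% in the wild-type list. By role, wild-type YTHDF1 was at 11 of 20 FGF genes, 3 of 5 receptor genes and 3 of 6 inhibitor genes. Members without it were FGF3, FGF4, FGF5, FGF6, FGF10, FGF17, FGF21, FGF22, FGF23, FGFR3, FGFR4, SPRY4, SPRED1 and SPRED2. Within 2 kb of either gene end it was at 8 of 31, against 29.1% of all coding genes. All 3 wild-type features were at 15 of 31 members (48.4%), against 45.2% of all coding genes. The nearest knockdown peak to any member lay 0.203 Mb from FGFR3.

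The wild-type YTHDF1 peaks at the members were, by their median, of middling strength for their list. The 40 peaks had −log10 q from 1.53 to 3.40 with a median of 1.87, the same as the median of the whole list at 1.87, and folds from 2.62 to 3.48. None of the 40 reached a −log10 q of 4, a strength that 2.39% of the wild-type list reached and that 4.12% of coding genes carried. Both shares are small, so 0 of 40 peaks and 0 of 31 members lay close to them. With both lists held to a −log10 q of at least 4, the members with a YTHDF1 peak were 0 of 31 in knockdown cells and 0 of 31 in wild-type cells. With the upper limit of 11.2% in each list, at that minimum a difference between the cells was not detectable at these genes.

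**Figure D5:**
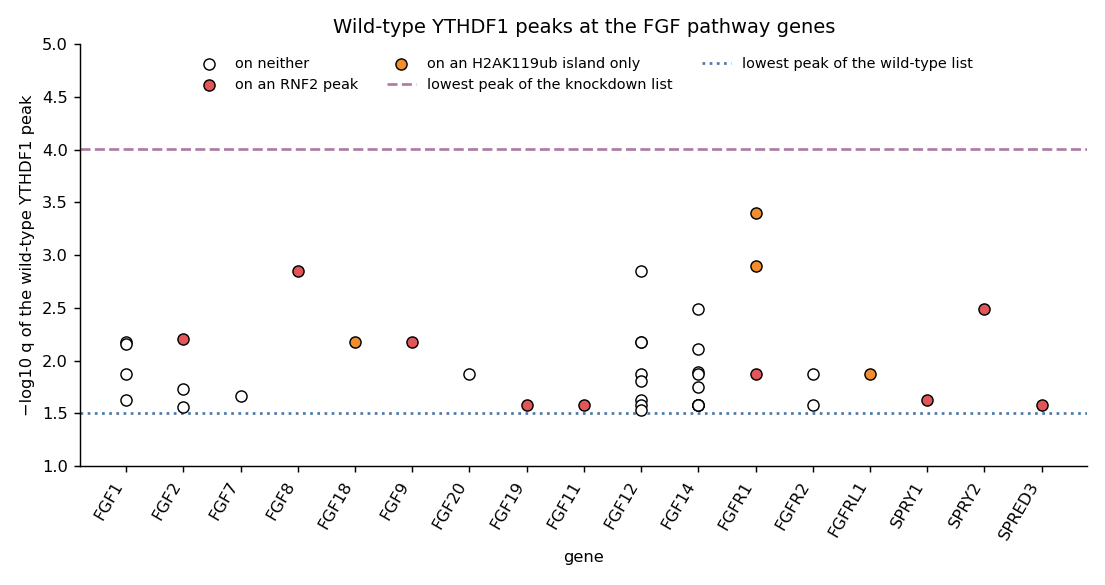
Strength (−log10 q, y axis) of the 40 wild-type YTHDF1 peaks at the 17 members that carry any (x axis), filled by overlap with an RNF2 peak, with an H2AK119ub island only, or with neither. All points lie between 1.53 and 3.40, under the dashed line of the weakest knockdown peak at 4.01 and above the dotted line of the weakest wild-type peak at 1.502.

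The strongest of these YTHDF1 peaks lay at FGFR1, where a peak of 3.48-fold (−log10 q 3.40) inside the gene overlapped an island but no RNF2 peak. A further FGFR1 peak of 3.30-fold lay outside the gene, and another of 2.92-fold lay on the RNF2 peak at the gene's end. At FGF8 a YTHDF1 peak of 1584 bp and 3.37-fold, the widest at any member, lay inside the 9.35 kb RNF2 domain (chromosome 10, 101779004 to 101780587). At FGF2 a peak of 957 bp and 2.89-fold began 21 bases downstream of the annotated start and overlapped the RNF2 peak there. SPRY2 had a 3.23-fold peak 1.31 kb before its start, on the second of its RNF2 peaks, and SPRY1 a 2.76-fold peak 1502 bases after its start. FGF1 had 4 peaks of up to 2.96-fold and FGF7 had 1 of 267 bp and 2.78-fold, all inside the genes and away from PRC1 features.

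The YTHDF1 peaks were then placed against the PRC1 features. All 3 YTHDF1 peaks of the inhibitor genes, at SPRY1, SPRY2 and SPRED3, lay on both RNF2 and H2AK119ub. Of the 31 peaks at the FGF genes 5 lay on RNF2 and 6 on an island, and of the 6 at receptor genes 1 and 4. Over all members 9 of 40 (22.5%, 10.8 to 38.5%) lay on RNF2, against 19.5% of the 24050 YTHDF1 peaks within the same window of any coding gene. For H2AK119ub the count was 13 of 40 (32.5%, 18.6 to 49.1%), against 38.1%. Both shares at the members include the coding-gene share in their intervals. These intervals treat the 40 peaks as independent, although 17 of them lay in FGF12 and FGF14. At the gene start, 4 of 24 members (16.7%) had YTHDF1 within 2 kb, against 22.6% of coding genes, and the start itself was covered at 0 of 24, against 11.8%. In knockdown cells 0 of 24 had a peak within 2 kb of the start, against 0.429% of coding genes.

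Long genes held many of these peaks. FGF12 and FGF14 alone held 17 of the 40 YTHDF1 peaks, none of them on RNF2 or an island, at 1.35 and 1.29 peaks per 100 kb of window against 1.90 over all coding genes. The 9 peaks on RNF2 and 13 on an island were therefore among the other 23 (39.1% and 56.5%). The shares over all coding-gene windows, 19.5% and 38.1%, leave out no long gene, and the difference was not tested. Among all coding genes the share with YTHDF1 was 28.0% in the shortest quartile, 44.8% and 59.8% in the middle quartiles and 83.9% in the longest. Members had it at 4 of 7, 4 of 11, 3 of 4 and 6 of 9 in the same order, which did not increase at each step. For RNF2 the shares of all coding genes were 54.0%, 69.2%, 77.6% and 86.1%, and the members had it at 7 of 7, 10 of 11, 4 of 4 and 7 of 9. For H2AK119ub the shares were 65.9%, 77.9%, 83.1% and 89.0%, and the members had it at 7 of 7, 11 of 11, 4 of 4 and 8 of 9. Both PRC1 features were already at 7 of 7 of the shortest members, so a higher share at the longest was not possible. The shortest quartile ends at 8.54 kb and holds FGF4, FGF11, FGF19, FGF21, FGF22, SPRY1 and SPRY2. The members had a median length of 14.6 kb, against 24.1 kb over all coding genes.

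Other genes of the pathway, from a list of 54, were counted in the same way. RNF2 lay at 47 of 54 (87.0%), H2AK119ub at 49 (90.7%) and wild-type YTHDF1 at 36 (66.7%), beside the 71.7%, 79.0% and 54.1% of all coding genes. By role, RNF2 was at 18 of 22 co-receptor and matrix genes, 19 of 21 adaptor and RAS-MAPK genes and 10 of 11 target and other feedback genes. The broadest RNF2 peak among these 54 was 15.9 kb of 28.8-fold at DUSP4, a MAP kinase phosphatase. FLRT2, a membrane protein of a family that binds FGF receptors, had 11.6 kb of 22.1-fold, and ETV5, a transcription factor induced by FGF, 9.69 kb of 9.17-fold. HS6ST1, a heparan sulfate sulfotransferase, had 7.07 kb of 8.89-fold and a YTHDF1 peak of 3.37-fold. DUSP6, the phosphatase that feeds back on ERK, had 6.73 kb of 7.22-fold and no YTHDF1 peak, and KLB, the co-receptor of FGF19 and FGF21, had 0.972 kb of 3.22-fold.

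The adaptor and RAS-MAPK genes had the narrowest domains of these 3 groups by their broadest peak, with 4.23 kb at the kinase gene RPS6KA3 and 3.61 kb at the adaptor gene SHC1. Of the 54, 3 reached a YTHDF1 −log10 q of 4, beside 4.12% of all coding genes. These were GAB1 and FRS3, which encode docking proteins, with 3.93-fold and 3.78-fold, and CBL, a ubiquitin ligase, with 3.93-fold. The target gene ETV4 followed with 3.52-fold, and FLRT1 had 3.38-fold. Knockdown peaks were at 2 of the 54, HRAS with 3.84-fold and DUSP5 with 3.29-fold (3.70%, beside 0.843% of all coding genes), against 36 with a wild-type peak, and both of these genes also had a wild-type peak. With both lists held to a −log10 q of at least 4 the counts were 2 in knockdown cells and 3 in wild-type cells, the wild-type genes being FRS3, GAB1 and CBL and not HRAS or DUSP5. The choice of HRAS and DUSP5 for naming followed their values.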

How the data were processed

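ChIP-seq of H1 cells gave 12 libraries in 6 groups, and 4 deposited peak lists were used. The authors had merged the replicates of a group, per the series' design text. The submitters' processing notes name the build hg38 and, without roles, MACS2 2.1.0, SICER 1.1, Bowtie2 2.2.5, Trimmomatic 0.35, Picard and SAMtools 1.3.1. The YTHDF1 and RNF2 lists have the layout of MACS2 narrow peaks, with a deposited score, fold enrichment (a ratio), −log10 q-value and summit per peak by the authors. The H2AK119ub list has island lengths in steps of 200 bp and, as its one deposited value, a score that ends at 1000 and whose scale is not given in the sources used here. These values rank peaks within their list. A common −log10 q minimum of 4 was applied to both YTHDF1 lists.

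Gene positions and starts came from RefSeq tables of GRCh38.p14, the assembly of hg38. All 31 members matched by symbol and 24 had a start. A peak counted when it touched the gene or 2 kb either side by 1 bp. The strongest peak had the highest −log10 q, with ties broken by fold. Overlap code was tested on simulated intervals (Python 3.11.15, pandas 2.3.3, scipy 1.17.1). Shares carry exact 95% binomial intervals, which cover counting error only. The members, the pathway list and the rule for named genes were chosen with earlier results of these data known. The rule named all members and, in each role group of the pathway list, the 2 genes with the widest RNF2 peak, the 2 with the strongest YTHDF1 peak, KLB and DUSP6. Alternatives were gene bodies alone, 5 kb either side, gene ends or starts alone, 50% or the midpoint of the peak inside, an overlap of 50% of the shorter peak, the better-scoring 50% of each list with ties kept and a −log10 q of 4. Separate replicate and input signals were not analysed here.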

Additional observations from a re-analysis of the deposited data

How the results depend on the processing

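The count of members with RNF2 stayed within 1.5 times of its value over the same genes in every role under all 8 alternatives, with 11 of the 14 FGF genes that have a start counted at starts. The −log10 q minimum of 4 could not change RNF2 counts, because every RNF2 peak reached it. Knockdown peaks were at 0 members throughout. No alternative could change that, because the nearest knockdown peak to any member lay 0.203 Mb away. YTHDF1 counts moved. With −log10 q held to 4 or more, YTHDF1 and all 3 features were left at 0 members of every role (4.12% and 3.85% of all coding genes), and 0 of 0 YTHDF1 peaks lay on RNF2 or H2AK119ub. With the better-scoring 50% of each list, YTHDF1 was at 11 members (1 inhibitor gene; 41.6% of coding genes) and all 3 features at 9 (1 inhibitor gene; 27.8%), while 3 of 21 YTHDF1 peaks lay on RNF2. Within 2 kb of either gene end, YTHDF1 was at 8 members (4 FGF genes, 1 receptor gene), against 29.1% of coding genes. All 3 features were at the same numbers, 8, 4 and 1, against 24.2% of coding genes. Within 2 kb of the start, YTHDF1 and all 3 features were each at 4 of 24 members (2 of 14 FGF genes, 0 of 4 receptor genes), against 22.6% and 19.0% of coding genes. In the gene body alone, YTHDF1 and all 3 features were each at 1 inhibitor gene (49.4% and 40.9% of coding genes). With 5 kb either side, all 3 features were at 14 FGF genes (49.7% of coding genes). With 50% of the island inside the window, H2AK119ub was at 20 of 31 members, no more than the 66.2% of coding genes. These were 12 of 20 FGF genes, 3 of 5 receptor genes and 5 of 6 inhibitor genes. The higher H2AK119ub share of the members was thus not kept under this rule. With its midpoint inside, H2AK119ub was at 24 of 31 members and 3 of 5 receptor genes (69.4% of coding genes). The backgrounds thus moved with the settings too. In all, 129 of the recomputed values stayed within 1.5 times and 33 moved. The 129 include the knockdown counts and the RNF2 counts at a −log10 q of 4, which could not move. They also include the 20 of 31 members with H2AK119ub.

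No paired analysis was possible because the authors merged the replicates into 1 list per group, and leaving out a replicate was not run for the same reason. The depth behind each list is unknown, so a missing peak does not show that a protein or mark was absent.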

Other observations

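SPRY4 and FGF1, which lacked RNF2 peaks, are neighbours on chromosome 5 with 267 kb between them. They lay in a single stretch of 658 kb without any RNF2 peak (142111113 to 142769385), while the median distance between neighbouring RNF2 peaks was 21.8 kb. Stretches at least this long numbered 760 of 29286. That is a share of stretches, and long stretches hold more sequence than short ones. The share of the genome or of coding genes lying in such stretches was not computed. The stretch held 37 H2AK119ub islands covering 249 kb and 15 wild-type YTHDF1 peaks, and SPRY4 and FGF1 were the coding genes wholly inside it. It was singled out after the values had been seen, and no test was made.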
